A study of Mus musculus with 128 samples.

Results

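The cerebella of adult Ts65Dn mice were compared with those of their euploid littermates. This comparison holds 10 of the 128 arrays of the series: 5 trisomic males (TS4, TS5, TS9, TS18 and TS21) and 5 euploid males (Eup6, Eup8, Eup15, Eup16 and Eup17), all 6 to 7 months old, untreated, with 1 animal on each array. The members were chosen by the tissue and genotype in the labels, and all 21225 probe sets of the array, 1 for each gene, were tested. Ts65Dn mice carry an extra copy of 2 stretches of the genome on a small extra chromosome: the MMU16 segment, here taken as Mrpl39 to Zbtb21, and the MMU17 segment, Scaf8 to Pde10a. Both groups came from Ts65Dn/F1 females crossed with B6EiC3Sn.BLiAF1 males, so the euploid animals share the mixed background but not the extra chromosome. The remaining arrays cover the cortex and hippocampus of Ts65Dn mice labelled with the same animal numbers, embryonic forebrain, and the Ts1Cje and Dp(16)1/Yey (Dp16) models. Trisomic males of those 2 models were bred to C57BL/6J or C57BL/6N females.

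MMU16 holds many of the genes that lie on human chromosome 21 (HSA21), the chromosome present in an extra copy in Down syndrome, whereas the MMU17 genes that are triplicated in Ts65Dn have their human counterparts elsewhere. An extra copy of a gene can raise its RNA in proportion to the copies, and genes left at 2 copies can respond in turn. The cerebellum is small in people with Down syndrome and in Ts65Dn mice. Most of its neurons are granule cells, which receive mossy fiber input, and its output neurons are the Purkinje cells.

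The arrays resembled each other closely. Signals are log2 values, and the array medians lay between 6.60 and 6.63. Correlations between pairs of arrays ran between 0.992 and 0.996. The first principal component held 21.4% of the variance and set TS5 apart, and TS5 also had the lowest array weight, 0.54. The tissue matched its label: 19 of 19 granule cell markers, 16 of 17 Purkinje cell markers and 14 of 14 markers of cerebellar inhibitory interneurons had a signal above the median of all probe sets (6.61), against 1 of 16 forebrain neuron markers and 0 of 21 brainstem neuron markers. Of 15 choroid plexus markers, 8 lay above that median, a share close to that of all probe sets.

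The trisomic cerebellum differed from the euploid cerebellum mainly in the triplicated genes. At a false discovery rate (FDR) of 10%, taken jointly over the 12 comparisons of the series, limma called 63 differentially expressed (DEX) genes, which is 0.297% of the probe sets. Of these, 59 were higher (0.278%) and 4 were lower (0.0188%) in trisomic animals. The MMU16 segment held 40 of the 63 (63.5%), the MMU17 segment held 13 (20.6%), and 10 lay outside the segments, 9 of them at a known position and 1 with none. At an FDR of 5% there were 51 DEX genes, and at 20% there were 88. The genes next to the threshold were Selenov (0.62 on the log2 scale, adjusted P = 0.0918) inside it and Il2rg (0.38, adjusted P = 0.101) and Rfx5 (-0.38, adjusted P = 0.101) outside it.

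Looser rules called mostly genes outside the segments. At an unadjusted P below 0.05, 923 probe sets were higher (4.35%), 833 of them outside the segments, and 535 were lower (2.52%), all of them outside. Marginally dysregulated genes (MDGs), with P below 0.05 and a fold change (FC) above 1.2 or below 0.8, made up 1.32% of the probe sets on the higher side, and 58 were lower (0.273%). Of those, 79 of the higher MDGs lay in the segments and 202 outside, and 58 of the 58 lower ones lay outside. The 5 trisomic values lay wholly above the 5 euploid values at 205 probe sets (0.966%) and wholly below them at 119 (0.561%). Over all 21225 probe sets the median FC was 1.007.

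**Figure D1:**
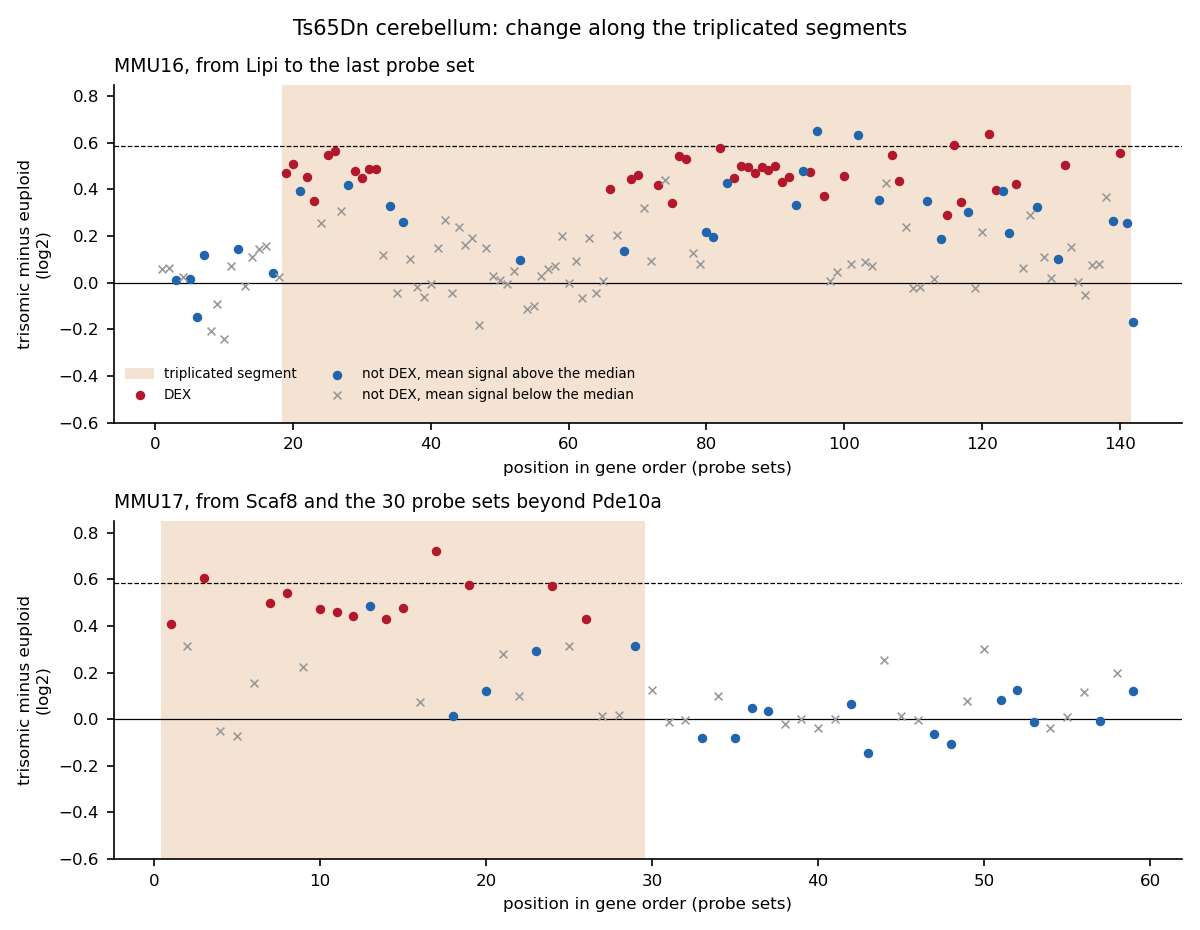
Difference between trisomic and euploid cerebella (y axis, log2) for each probe set in gene order (x axis) on MMU16 and MMU17, with the triplicated segments shaded and the dashed line at the FC of 1.5 that 3 copies over 2 would give. Within the shading 134 of 152 probe sets were higher in trisomic animals and 53 were DEX, and none of those drawn outside it was DEX.

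Along MMU16 the step in expression fell at the edge of the segment. Mrpl39, a mitochondrial ribosomal protein and the first gene of the segment, was higher by 0.47, while Ncam2, a neural adhesion gene that comes shortly before it, differed by 0.04 and is at 2 copies. None of the 18 probe sets between Lipi and the edge was DEX (median FC 1.024, 13 higher), nor was any of the 525 probe sets of MMU16 before Lipi (median FC 1.006, 286 higher). On MMU17, none of the 967 probe sets beyond Pde10a was DEX (median FC 1.010, 541 higher). On the centromere side of Scaf8 no edge is expected, since the study describes the extra chromosome as holding the centromeric part of MMU17. Pisd-ps2, a transcribed pseudogene just before Scaf8, was between 6.53 and 7.36 in trisomic animals and between 6.48 and 6.92 in euploid animals. Its groups overlapped, and it passed P below 0.05 only (FC 1.341, adjusted P = 0.677). H2-Q8 and H2-Q9, which the RefSeq table also places before Scaf8, had an FC of 0.941 and 1.207 and did not pass P below 0.05. These 3 probe sets were counted outside the segment, whose edges were set at named genes and not at measured breakpoints. Any of the 3 that truly lies before Scaf8 would be a triplicated gene counted as outside.

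Within the segments, signal level separated the probe sets that moved. Among the 62 MMU16 probe sets above the median signal, 62 were higher in trisomic animals, 57 at P below 0.05 and 39 DEX, with a median FC of 1.357 and a range of 1.068 to 1.572. Since the trisomic values enter that mean signal, the split was repeated on the euploid means alone: it left out 2 of the 62, and of the other 60, 60 were higher, 55 at P below 0.05 and 38 DEX, with a median FC of 1.352 and a range of 1.068 to 1.554. The same 18 MMU17 probe sets passed both splits. The 61 dimmer MMU16 probe sets had a median FC of 1.055, and 1 of them, Rwdd2b, was DEX. Of the 18 brighter MMU17 probe sets, 18 were higher, 16 at P below 0.05 and 13 DEX, with a median FC of 1.382 and a range of 1.009 to 1.648. The brighter probe sets outside the segments had a median FC of 0.995, with 4842 higher and 5691 lower. The keratin-associated genes of MMU16, which encode hair proteins, were mostly dim here: 12 of 20 were higher, none was DEX or passed an unadjusted P below 0.05 by limma, and their median FC was 1.014.

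**Figure D2:**
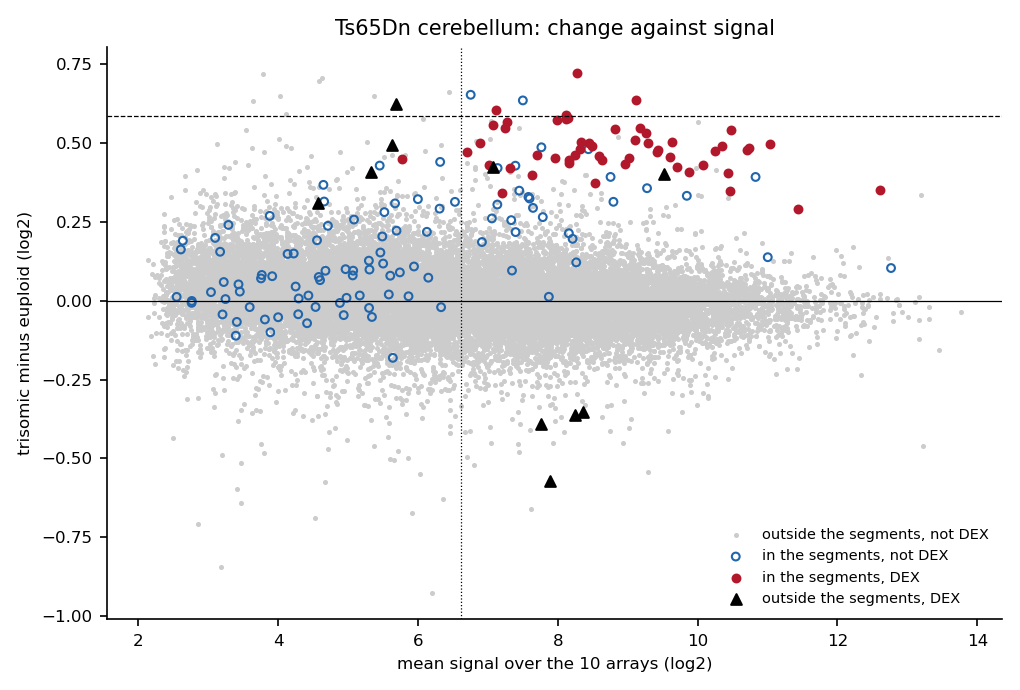
Difference between trisomic and euploid cerebella (y axis, log2) against the mean signal over the 10 arrays (x axis, log2) for all 21225 probe sets, with the dotted line at the median signal of 6.61. Open and filled circles are the 152 triplicated probe sets, of which 72 lie below the median signal and 80 above it, and triangles are the 10 DEX genes outside the segments.

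Every trisomic animal showed the elevation, and by nearly the same amount. Over the 62 brighter MMU16 probe sets, the median signal relative to the euploid mean was between 1.328 and 1.366 in the 5 trisomic cerebella, against 0.976 to 1.018 in the 5 euploid cerebella. Both ranges were the same over the 60 probe sets of the split on euploid means. Over the 18 brighter MMU17 probe sets it was between 1.347 and 1.421 in trisomic cerebella, against 0.963 to 1.022 in euploid cerebella. The groups were far apart on both segments, and no array went against its genotype label.

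**Figure D3:**
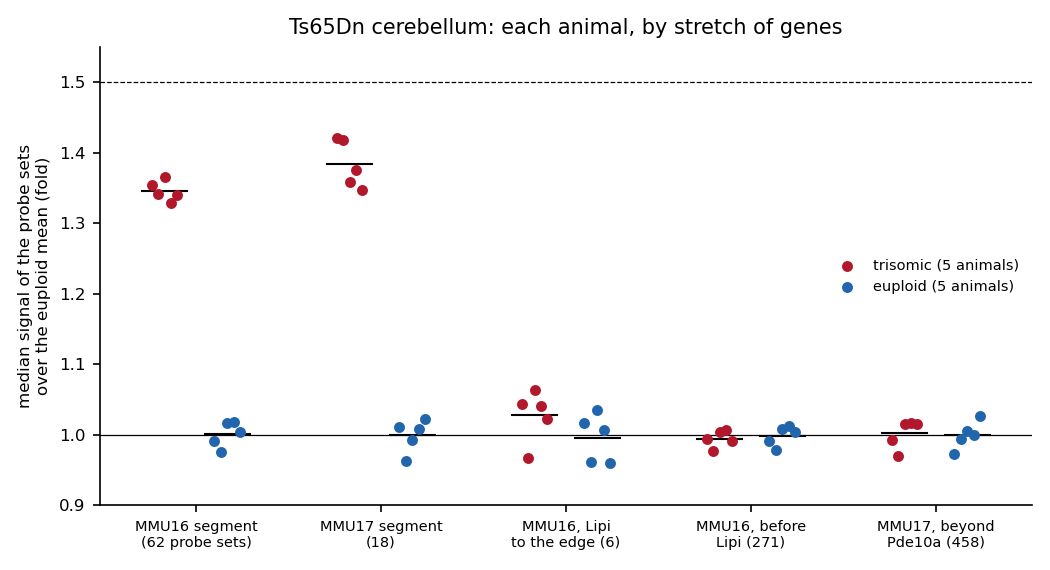
Median signal relative to the euploid mean (y axis, fold) in each trisomic and each euploid animal (points, with the group mean as a bar) for stretches of genes along the x axis. The trisomic animals sit between 1.328 and 1.366 on the brighter MMU16 probe sets, all above the euploid animals at 0.976 to 1.018.

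Of 6 interferon receptor and antiviral genes of MMU16, 6 were higher, 4 of them at P below 0.05 and 3 DEX, with a median FC of 1.356. Ifnar1 and Ifnar2 encode the chains of the type I interferon receptor, Ifngr2 a chain of the type II interferon receptor, and Il10rb a chain shared by the receptors of interleukin-10 and type III interferons. Ifnar2 had log2 signals of 8.41, 8.20, 8.50, 8.49 and 8.54 in trisomic cerebella, against 7.79, 7.82, 7.83, 7.81 and 7.9995 in euploid cerebella. The groups did not overlap, and the difference was 0.58 ± 0.07 (SE, n = 5 each; FC 1.492, adjusted P = 0.00485). Ifnar1 was between 9.22 and 9.30 in trisomic animals and between 8.71 and 8.87 in euploid animals (FC 1.367, adjusted P = 0.00346). Ifngr2 was between 9.71 and 10.08 in trisomic animals and between 9.25 and 9.46 in euploid animals (FC 1.416, adjusted P = 0.0121). Il10rb also had separate groups but missed the threshold (0.43 ± 0.08, adjusted P = 0.107). The antiviral GTPase genes Mx1 and Mx2, which interferons induce, were among the dimmest of the segment, at most 3.40 for Mx1 and 4.23 for Mx2 in any animal, and their differences were 0.00 ± 0.08 and 0.08 ± 0.12.

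The 57 measured interferon response genes at 2 copies moved less than these receptors. Over all 21073 probe sets outside the segments, 11426 were higher and 9647 lower. At P below 0.05, 833 of those were higher and 535 lower, and their median FC was 1.006. Of the 57 interferon response genes, 40 were higher and 17 lower, 4 passed P below 0.05 upward and 0 downward, and 0 were DEX. Their median FC was 1.022, and 10 of them had a signal above the median. The most marked was Ifi203, an interferon-inducible nuclear protein (FC 1.302, adjusted P = 0.457). In JAK-STAT signaling, the pathway that these receptors feed, 27 of 36 genes were higher and 9 lower, with 3 at P below 0.05 upward, 0 downward and 0 DEX. The median FC of that list was 1.037. Its mean level was between 7.34 and 7.39 in trisomic animals, just above the 7.30 to 7.33 in euploid animals. Its member nearest to the threshold was Il2rg, the common gamma chain of several interleukin receptors, with log2 signals of 4.40, 4.46, 4.32, 4.48 and 4.16 in trisomic animals and 3.90, 3.91, 4.09, 4.09 and 3.91 in euploid animals (0.38 ± 0.07). Those groups were apart, at a low signal.

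Kinase and signaling genes of the segment were all higher: 9 of 9, each at P below 0.05, with 7 DEX and a median FC of 1.323. Dyrk1a, a kinase that acts on the NFAT transcription factors and on tau, had log2 signals of 10.63, 10.56, 10.69, 10.67 and 10.61 in trisomic cerebella and 10.26, 10.21, 10.31, 10.35 and 10.30 in euploid cerebella. The difference was 0.35 ± 0.05 (FC 1.272, adjusted P = 0.0239), with no overlap. Rcan1, an inhibitor of the phosphatase calcineurin, had values of 8.79, 8.77, 8.84, 8.87 and 8.80 in trisomic cerebella and 8.20, 8.37, 8.32, 8.52 and 8.36 in euploid cerebella (0.46 ± 0.06, adjusted P = 0.00939). Its groups were likewise apart. Tiam1, an activator of the small GTPase Rac1, was between 10.60 and 10.69 in trisomic animals and between 10.07 and 10.47 in euploid animals (FC 1.323, adjusted P = 0.0513). Itsn1, an endocytic scaffold protein, was between 9.76 and 9.92 in trisomic animals and between 9.33 and 9.43 in euploid animals (FC 1.370). Vps26c, a subunit of the retriever complex that recycles endosomal cargo, differed by 0.59 ± 0.07 (FC 1.504) and was the highest of this group. Ttc3, a ubiquitin ligase among the brightest genes of the segment, was its lowest and differed by 0.29 ± 0.05 (FC 1.223, adjusted P = 0.0449). Downstream, 7 of the 19 calcineurin and NFAT genes at 2 copies were higher and 12 lower, with 0 passing P below 0.05 in either direction. Most of these were bright, and of all 10533 brighter probe sets outside the segments 5691 were lower. At P below 0.05, 333 of those 10533 were lower and 260 higher.

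Genes of membrane traffic and protein turnover were all higher too, 9 of 9 at P below 0.05 with 8 DEX and a median FC of 1.364. Synj1, a phosphoinositide phosphatase that uncoats endocytosed synaptic vesicles, had log2 signals of 10.76, 10.74, 10.80, 10.82 and 10.65 in trisomic cerebella and 10.25, 10.22, 10.25, 10.20 and 10.12 in euploid cerebella. The groups lay well apart, and the difference was 0.54 ± 0.06 (FC 1.455, adjusted P = 0.00184). Cct8, a subunit of a chaperonin that folds actin and tubulin, was between 10.56 and 10.63 in trisomic animals and between 10.05 and 10.17 in euploid animals (FC 1.404, adjusted P = 0.00186). Usp16, a deubiquitinase, and Ltn1, a ubiquitin ligase that acts on stalled ribosomes, differed by 0.49 ± 0.06 and 0.48 ± 0.07. In the synaptic vesicle cycle at 2 copies, 22 of 39 genes were higher and 17 lower, 0 passed P below 0.05 upward and 1 downward, and the median FC was 1.004. Among the 10533 brighter probe sets outside the segments, where all 39 of these fall, 260 were higher at P below 0.05 and 333 lower.

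Of 18 enzyme genes of the segment, 18 were higher, 17 at P below 0.05 and 13 DEX, with a median FC of 1.381. Gart, an enzyme of purine synthesis, was between 8.64 and 8.75 in trisomic animals, against 8.09 to 8.27 in euploid animals (0.50 ± 0.06, adjusted P = 0.00265). The exception at P below 0.05 was Sod1, the cytosolic superoxide dismutase. Its log2 signals were 11.06, 11.27, 10.88, 10.97 and 11.18 in trisomic cerebella and 10.94, 11.02, 10.98, 10.86 and 10.86 in euploid cerebella. These groups overlapped, and the difference of 0.14 ± 0.08 did not pass the test (FC 1.100, adjusted P = 0.833). Among 36 antioxidant enzyme genes at 2 copies, 12 were higher and 24 lower, with 0 at P below 0.05 upward and 2 downward, and the median FC was 0.977. Of these 36, 32 were above the median signal. The brighter probe sets outside the segments were also more often lower, 5691 of 10533, with 333 at P below 0.05 downward and 260 upward.

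Of the transcription factor and chromatin genes of the segment, 18 of 19 were higher, 12 at P below 0.05 and 3 DEX, and the median FC was 1.179. Ets2, an ETS family transcription factor, was the DEX gene of MMU16 with the largest change. Its values were 9.31, 9.23, 9.65, 9.52 and 9.47 in trisomic cerebella and 8.83, 8.76, 8.62, 8.83 and 8.95 in euploid cerebella (0.64 ± 0.09, FC 1.554, adjusted P = 0.00868). Son, a protein that is needed for RNA splicing, and Paxbp1 were DEX as well (FC 1.398 and 1.446). Hmgn1, a nucleosome-binding protein, had separate groups but a smaller difference (FC 1.159, adjusted P = 0.567). Olig1 and Olig2, transcription factors of the oligodendrocyte lineage, had overlapping groups: Olig1 was between 8.05 and 8.45 in trisomic animals and between 7.77 and 8.34 in euploid animals (FC 1.145, adjusted P = 0.828), and Olig2 differed by 0.22 ± 0.13. Runx1, a regulator of blood cell development, was dim and differed by 0.09 ± 0.08.

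Genes of adhesion and the extracellular space included the amyloid precursor. App, the source of the amyloid beta peptide, had log2 signals of 12.73, 12.79, 12.81, 12.82 and 12.74 in trisomic cerebella and 12.38, 12.44, 12.41, 12.44 and 12.46 in euploid cerebella. The groups were narrow and apart (0.35 ± 0.05, FC 1.274, adjusted P = 0.0132). Adamts1, a metalloproteinase that cleaves proteoglycans, had the lowest adjusted P of the comparison, 0.00169 (0.57 ± 0.06). Dscam, a neuronal adhesion molecule, and Jam2, a junction protein of the endothelium, were DEX (FC 1.418 and 1.422). Over the 16 genes of this list, 13 were higher, 8 at P below 0.05, and the median FC was 1.159. Bace2, a secretase that cleaves App, was dim, and its groups overlapped (FC 1.111, adjusted P = 0.775).

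Ion channel and receptor genes had no DEX member, although 9 of 10 were higher, 7 at P below 0.05, with a median FC of 1.247. Kcnj6, the GIRK2 potassium channel subunit, was between 7.11 and 7.38 in trisomic animals and between 6.86 and 7.13 in euploid animals (FC 1.235, adjusted P = 0.3). Grik1, a kainate receptor subunit, was between 7.04 and 7.31 in trisomic animals, just above the 6.77 to 7.03 in euploid animals (FC 1.198, adjusted P = 0.483). Pcp4, a calmodulin-binding peptide abundant in Purkinje cells, was close to the top of the signal range: 12.82, 12.81, 12.84, 12.83 and 12.79 in trisomic animals and 12.58, 12.75, 12.70, 12.78 and 12.76 in euploid animals. Its groups did not overlap, but the difference was 0.10 ± 0.06 (FC 1.074, adjusted P = 0.83).

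Clic6 and Kcne2, a chloride channel protein and a potassium channel subunit, showed large differences with wide spread, and both are abundant in choroid plexus. Clic6 had log2 signals of 7.85, 7.66, 7.87, 7.84 and 7.86 in trisomic cerebella and 6.74, 7.27, 7.75, 7.21 and 6.95 in euploid cerebella (FC 1.552, adjusted P = 0.249). Kcne2 had 6.70, 7.42, 7.02, 7.11 and 7.15 in trisomic cerebella and 6.29, 6.12, 7.11, 6.39 and 6.23 in euploid cerebella (FC 1.571, adjusted P = 0.409). Eup15 stood in the trisomic range for both genes. The mean level of the 15 choroid plexus markers at 2 copies was 7.29, 7.41, 7.31, 7.44 and 7.51 in the same trisomic animals and 6.77, 7.16, 7.71, 7.35 and 7.22 in the same euploid animals. Eup15 was the highest of these and Eup6 the lowest. Of the 15 markers, 13 were higher in trisomic animals, 2 of them at P below 0.05 (Folr1, a folate receptor, FC 1.315, and Calml4, FC 1.269), and 0 were DEX. Over all 21073 probe sets outside the segments, 11426 were higher, 833 of them at P below 0.05 and 6 of them DEX. Ttr, the transthyretin gene that marks this epithelium, was between 13.01 and 13.17 in trisomic animals and between 12.65 and 13.35 in euploid animals. The part of choroid plexus content in the Clic6 and Kcne2 values was not tested.

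The MMU17 genes, which are not HSA21 orthologs, moved by about as much as those of MMU16: 27 of 29 were higher, 20 at P below 0.05 and 13 DEX. Ezr, which links the actin cytoskeleton to the membrane, had the highest FC of all 21225 probe sets. Its log2 signals were 8.57, 8.74, 8.66, 8.62 and 8.60 in trisomic cerebella and 7.61, 8.01, 8.23, 7.87 and 7.87 in euploid cerebella (0.72 ± 0.10, FC 1.648, adjusted P = 0.0069). The euploid animals were the more variable, and the groups were apart. Cep43, a centrosomal protein needed for cilia, had values of 8.22, 8.37, 8.34, 8.21 and 8.19 in trisomic cerebella and 7.76, 7.60, 7.65, 7.79 and 7.69 in euploid cerebella (0.57 ± 0.06, FC 1.486, adjusted P = 0.00215). Rps6ka2, a ribosomal S6 kinase, differed by 0.58 ± 0.08 (FC 1.491).

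Arid1b, a subunit of the BAF chromatin remodeling complex, had log2 signals of 9.55, 9.49, 9.66, 9.50 and 9.51 in trisomic cerebella and 9.14, 9.00, 8.94, 9.05 and 9.08 in euploid cerebella. That difference was 0.50 ± 0.06 (FC 1.414, adjusted P = 0.00346), with no overlap. Tfb1m, a methyltransferase of mitochondrial ribosomal RNA, differed by 0.60 ± 0.11 (FC 1.521, adjusted P = 0.0674), and Gtf2h5, a subunit of the TFIIH transcription and repair factor, by 0.43 ± 0.06 (FC 1.346). Tulp4, Snx9, Zdhhc14, Tmem242 and Scaf8 were also DEX, with FC between 1.326 for Scaf8 and 1.457 for Tmem242. Serac1, which takes part in phospholipid remodeling, had separate groups and an adjusted P of 0.145 (FC 1.400). Pde10a, a phosphodiesterase and the last gene of the segment, overlapped between groups (FC 1.242, adjusted P = 0.572).

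Some bright triplicated genes moved less than the rest. Of the 80 brighter probe sets of both segments, 11 had an FC below 1.2, among them Mir692-1, Pcp4, Sod1, Olig1, Hmgn1, Olig2 and Grik1. The other 69 had an FC of at least 1.2, and 1 of those, Ezr, was above 1.6.

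MicroRNAs silence target transcripts that pair with their seed, bases 2 to 8 of the mature strand. Mir692-1, on MMU17, is the only microRNA gene with a probe set in the segments as taken here. On MMU16, 4 microRNA genes with a probe set lie between Lipi and Mrpl39. Mir99a, Mirlet7c-1 and Mir125b-2 are nearer to Lipi. Mir155 comes immediately before Mrpl39, so close to the edge that its copy number is not settled by an edge set at a named gene. The mature sequences below are from RefSeq (GRCm38.p6), with the seed in capitals, and show that the 5 seeds differ. On MMU16, on the plus strand, miR-155-5p lies at chr16:84714143-84714165, miR-99a-5p at chr16:77598940-77598961, let-7c-5p at chr16:77599672-77599693 and miR-125b-5p at chr16:77646279-77646300. They were chosen after their values were seen.
mmu-miR-692: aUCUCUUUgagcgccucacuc
mmu-miR-155-5p: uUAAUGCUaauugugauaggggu
mmu-miR-99a-5p: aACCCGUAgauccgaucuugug
mmu-let-7c-5p: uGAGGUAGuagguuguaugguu
mmu-miR-125b-5p: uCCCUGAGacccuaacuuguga

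No member of this group moved beyond its spread. The Mir692-1 probe set had log2 signals of 7.49, 7.98, 7.86, 7.72 and 8.35 in trisomic animals and 7.63, 8.21, 7.85, 7.86 and 7.78 in euploid animals, a difference of 0.01. Its mature sequence at chr17:6895259-6895279 on the minus strand is shared with 2 other genes. Mir155 was between 4.49 and 5.04 in trisomic animals and between 4.49 and 4.89 in euploid animals (0.03). Mir99a was between 5.47 and 6.01 in trisomic animals and between 5.36 and 6.09 in euploid animals (-0.09). Mirlet7c-1 differed by -0.24 and Mir125b-2 by 0.07, both at low signal. A gene array of this kind labels whole transcripts, and mature microRNA was not measured on its own. Over the 308 microRNA probe sets, limma called 0 DEX, with 14 higher and 7 lower at P below 0.05 and a median FC of 1.013.

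Outside the segments 10 genes were DEX: 6 were higher and 4 lower. This split moved with the scaling, to 3 higher and 11 lower after a second quantile normalization and to 3 higher and 6 lower after median centering, and it was 7 higher and 1 lower with the replicate block over the 3 regions. Of the 10, 9 have a known position, at 2 copies. In the 10 fits that left out 1 animal at a time, 3 of them kept their call each time, Parva, Gabpb1 and Neu2. Parva (MMU7) encodes alpha-parvin, which joins integrins to actin. Its log2 signals were 9.66, 9.61, 9.78, 9.74 and 9.82 in trisomic cerebella and 9.28, 9.33, 9.27, 9.28 and 9.44 in euploid cerebella. The groups were apart, with a difference of 0.40 ± 0.06 (FC 1.321, adjusted P = 0.0189). Parva was also the only 2-copy gene that kept its call under every other setting tried. Neu2 (MMU1), a cytosolic sialidase, was dim, with values of 5.39, 5.48, 5.60, 5.59 and 5.62 in trisomic cerebella and 5.08, 5.13, 5.01, 5.16 and 5.26 in euploid cerebella (0.41 ± 0.07, adjusted P = 0.0309). Its adjusted P was 0.111 after a second quantile normalization.

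Gabpb1 (MMU2) moved against Gabpa, its partner. Gabpa, a triplicated ETS family gene, encodes the subunit of GA-binding protein that contacts DNA, and Gabpb1 encodes the subunit that binds to it and activates transcription. Gabpa had log2 signals of 8.17, 8.33, 8.04, 8.10 and 8.31 in trisomic cerebella and 7.87, 7.68, 7.75, 7.77 and 7.62 in euploid cerebella (0.45 ± 0.07, FC 1.368, adjusted P = 0.029). Gabpb1 had 8.13, 8.24, 8.23, 8.17 and 8.13 in trisomic cerebella and 8.56, 8.44, 8.60, 8.48 and 8.59 in euploid cerebella (-0.35 ± 0.06, FC 0.783, adjusted P = 0.0274). Neither gene overlapped between groups. With the 3 brain regions in 1 fit, which pools their spread, the adjusted P of Gabpb1 was 0.2.

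The promoters of this pair are shown because the subunits moved in opposite directions. They were read from RefSeq (GRCm38.p6), 5′ to 3′ on the strand of the gene, after the values were seen, with matches of the ETS core CCGGAA on either strand in capitals. The Gabpa window holds 147 bases before its start (chr16:84834977-84835123, plus strand), where it meets the start of Atp5j on the other strand. The Gabpb1 window holds 250 bases (chr2:126675593-126675842, minus strand).
Gabpa: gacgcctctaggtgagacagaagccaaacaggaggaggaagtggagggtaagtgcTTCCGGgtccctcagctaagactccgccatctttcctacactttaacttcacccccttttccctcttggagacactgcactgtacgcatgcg
Gabpb1: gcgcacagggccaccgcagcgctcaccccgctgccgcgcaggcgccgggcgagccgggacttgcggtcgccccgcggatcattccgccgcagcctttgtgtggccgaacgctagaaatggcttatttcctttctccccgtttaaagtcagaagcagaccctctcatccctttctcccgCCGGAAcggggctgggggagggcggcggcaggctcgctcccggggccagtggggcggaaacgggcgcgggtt

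Each window holds 1 match, on the other strand for Gabpa. A match occurred in 9.1% of 32851 promoters over 147 bases and in 12.0% over 250 bases. Atp5j, an ATP synthase subunit that shares this stretch with Gabpa, was between 10.83 and 11.17 in trisomic animals and between 10.45 and 10.81 in euploid animals (0.39 ± 0.08, FC 1.312, adjusted P = 0.179), so both genes of the pair stood higher.

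The other 7 called genes outside the segments lost their call in 6 to 9 of the 10 fits without 1 animal. Atp2b4 (MMU1), a plasma membrane calcium pump, was lower by the most, with values of 7.92, 7.61, 7.48, 7.74 and 7.28 in trisomic cerebella and 8.07, 8.10, 8.19, 8.27 and 8.26 in euploid cerebella (-0.57 ± 0.10, FC 0.673, adjusted P = 0.0645). The trisomic animals were spread widely, all below the euploid animals. Grin3a (MMU4), an NMDA receptor subunit that lowers calcium entry, had values of 7.60, 7.67, 7.48, 7.67 and 7.44 in trisomic cerebella and 7.95, 7.87, 8.04, 8.11 and 7.83 in euploid cerebella (-0.39 ± 0.07, FC 0.763, adjusted P = 0.0849). Selenov (MMU7), a selenoprotein, was between 5.76 and 6.08 in trisomic animals and between 4.93 and 5.62 in euploid animals (FC 1.540, adjusted P = 0.0918). Syde1 (MMU10), a GTPase-activating protein found at synapses, differed by 0.42 ± 0.08, and Tnfsf13 (MMU11), the cytokine APRIL, by 0.49 ± 0.09. Gm9946 (MMU6) differed by 0.31 ± 0.05, and the probe set with no name or known position by -0.36 ± 0.07.

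**Figure D4:**
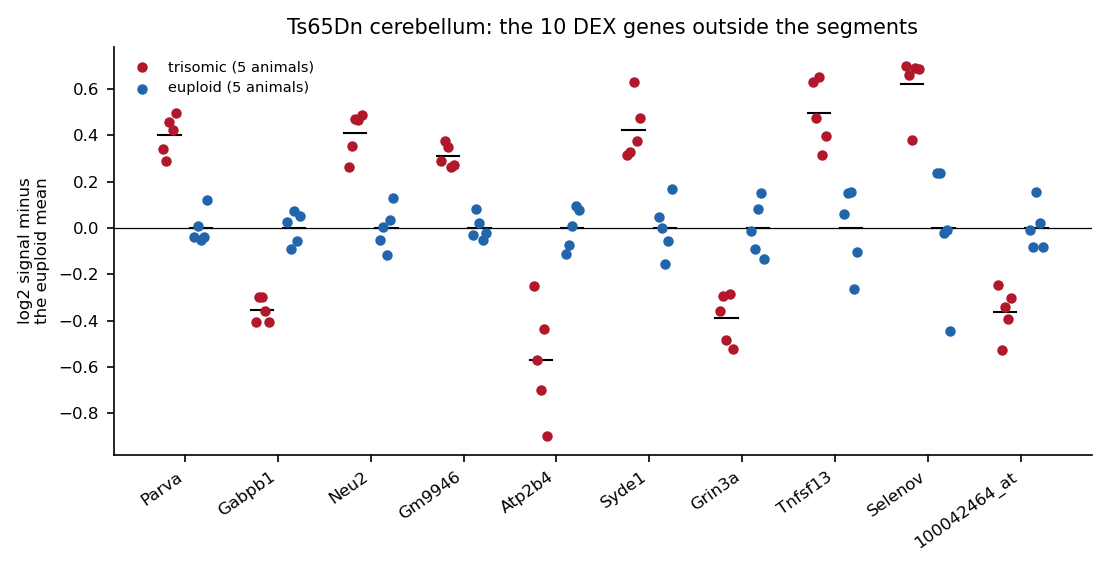
Log2 signal minus the euploid mean (y axis) in each trisomic and each euploid animal (points, with group means as bars) for the 10 DEX genes outside the segments (x axis). The groups do not overlap at any of the 10, and Atp2b4 has the widest trisomic spread, 7.28 to 7.92 before the euploid mean is taken off.

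Each of the 15 cell type marker lists had a mean level that overlapped between the groups, and 0 of their members were DEX. With 10 of all 21073 probe sets outside the segments DEX, a count of 0 in such short lists says little. At P below 0.05, 833 of those 21073 were higher and 535 lower. Since these are bulk samples, fewer cells of a type and less RNA per cell cannot be told apart. Of 17 Purkinje cell markers 5 were higher and 12 lower (median FC 0.974), of 19 granule cell markers 9 were higher and 10 lower (0.991), and of 14 interneuron markers 7 were higher and 7 lower (0.998). The astrocyte and Bergmann glia list had the lowest median FC of these, 0.931, with 4 higher and 14 lower, 1 at P below 0.05 upward and 3 downward. Its mean level nevertheless overlapped, between 9.38 and 9.56 in trisomic animals and between 9.38 and 9.64 in euploid animals. Slc1a2, the main glial glutamate transporter, was lower (FC 0.889, adjusted P = 0.697), and Etnppl, an enzyme of astrocytes, was higher (FC 1.319, adjusted P = 0.287), both at P below 0.05 only. Oligodendrocyte and microglia markers had median FC of 0.983 and 0.966. Among 15 endothelial markers 10 were higher, with Kdr, a VEGF receptor (FC 1.223), and Vwf, the von Willebrand factor (FC 1.213), at P below 0.05 and with groups apart.

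Ptprz1, a receptor phosphatase of oligodendrocyte precursors and Bergmann glia, was between 9.84 and 10.04 in trisomic animals, below the 10.06 to 10.34 in euploid animals (FC 0.817, adjusted P = 0.301). Over the 27 pathway lists at 2 copies, Grin3a was the only DEX member, and under the other settings between 0 and 5 members were called. The neurotransmitter receptor genes were mostly bright, and of all brighter probe sets outside the segments 5691 of 10533 were lower, with 333 at P below 0.05 downward and 260 upward. Beside these, 20 of 28 glutamate receptor genes were lower, 3 at P below 0.05 and 0 upward (median FC 0.967), and 16 of 23 GABA and glycine receptor genes were lower, 2 at P below 0.05 and 0 upward (median FC 0.962). Grik5, a kainate receptor subunit, was between 8.18 and 8.34 in trisomic animals and between 8.40 and 8.48 in euploid animals (FC 0.885). Gabrg1, a GABA-A receptor subunit found in Bergmann glia, was between 6.68 and 6.97 in trisomic animals and between 7.03 and 7.21 in euploid animals (FC 0.795, adjusted P = 0.155). Both had groups apart, and neither passed the threshold.

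Of the 26 genes in the RNA polymerase I and ribosomal RNA list, 23 were above the median signal. Of all brighter probe sets outside the segments 5691 of 10533 were lower, with 333 at P below 0.05 downward and 260 upward. In this list 18 of 26 genes were lower, 5 at P below 0.05 and 0 upward (median FC 0.980). Its mean level narrowly did not overlap, with the highest trisomic animal at 8.095 and the lowest euploid animal at 8.099. Ncl, the nucleolar protein nucleolin, was among the lower genes (FC 0.882, adjusted P = 0.703). Fn1, the matrix protein fibronectin, was between 8.11 and 8.40 in trisomic animals and between 8.50 and 8.60 in euploid animals (FC 0.796, adjusted P = 0.108). HSA21 orthologs that are not triplicated in Ts65Dn had a median FC of 1.021 over 63 genes, and Cbs, an enzyme of homocysteine metabolism, was lower with groups apart (FC 0.831, adjusted P = 0.321). Slc38a5, a glutamine transporter, was higher with groups apart (FC 1.408, adjusted P = 0.142).

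Most MDGs outside the segments had low signals. Of 202 such genes that were higher, 152 lay below the median signal, and of 58 that were lower, 34 did. By FC, those highest above 1 were Ighv1-42 (FC 1.644), 3110039M20Rik (1.620), Pappa (1.581), Olfr403 (1.569), Ostn (1.567) and Selenov, and those lowest were Gm14548 (0.557), Klra8 (0.613), Gm10651 (0.621), Igkv4-57 (0.627), Mettl7a3 (0.662) and Atp2b4. Selenov and Atp2b4 were DEX, and the other 10 were not. Pappa, a protease that frees insulin-like growth factors from a binding protein, was between 6.39 and 7.35 in trisomic animals and between 5.76 and 6.41 in euploid animals. Olfactory receptor genes made up 31 of the MDGs that were higher and 4 of those that were lower. Of 1098 olfactory receptor probe sets, 813 were higher and 5 lay above the median signal, and their median FC was 1.043. Outside the segments 11426 of all 21073 probe sets were higher, 202 of them MDGs. Only 4842 of the 10533 brighter ones were higher, so dim probe sets leaned upward in general. Whether olfactory receptor genes differ from other dim genes was not tested.

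The size of the effect on the triplicated genes was much the same in the other brain regions of Ts65Dn mice. Over the 62 brighter MMU16 probe sets the median FC was 1.357 in cerebellum, 1.363 in cortex and 1.347 in hippocampus. Over the 18 brighter MMU17 probe sets it was 1.382 in cerebellum, 1.357 in cortex and 1.401 in hippocampus. In limma's test of the difference between the effects, 0% of the probe sets passed an FDR of 10%, both for cerebellum minus cortex (404 higher and 185 lower at P below 0.05) and for cerebellum minus hippocampus (542 higher and 756 lower). The median difference over the MMU16 genes was -0.02 against cortex and 0.00 against hippocampus. In cerebellum minus cortex the lowest adjusted P was 0.223, for Myl4, an atrial myosin light chain (0.67), and in cerebellum minus hippocampus it was 0.723, for genes that include Kcnmb1, a potassium channel subunit (-0.48). The fits used the animal numbers as a block, and without the block or with differences within animals 0 genes passed as well. The cerebellum profiles of TS9, TS18 and TS21 did not all match those of the same number in the other regions, while the euploid profiles matched. Matches were sought only within each group.

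The 2-copy DEX genes did not pass in the other regions. Parva differed by 0.40 in cerebellum, 0.25 in cortex and 0.18 in hippocampus, and Gabpb1 by -0.35 in cerebellum, -0.14 in cortex and -0.02 in hippocampus. Atp2b4 differed by -0.57 in cerebellum, 0.01 in cortex and -0.28 in hippocampus, and Grin3a by -0.39 in cerebellum, 0.18 in cortex and -0.00 in hippocampus. Neu2 differed by 0.41 in cerebellum, 0.11 in cortex and -0.06 in hippocampus, where the difference of 0.46 was among the 6 lowest P values (adjusted P = 0.723). Selenov differed by 0.62 in cerebellum, 0.45 in cortex and 0.28 in hippocampus, and Gm9946 by 0.31 in cerebellum, 0.09 in cortex and 0.31 in hippocampus. Syde1 differed by 0.42 in cerebellum, 0.01 in cortex and 0.09 in hippocampus, and Tnfsf13 by 0.49 in cerebellum, 0.13 in cortex and -0.12 in hippocampus. The unnamed probe set differed by -0.36 in cerebellum, -0.14 in cortex and 0.29 in hippocampus. None of these differences between regions passed the test.

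The cerebella of the other models separated the stretches that each carries in 3 copies. Ts1Cje lacks the MMU17 segment and the stretch from Mrpl39 to Sod1 as a triplication, and Dp16 lacks the MMU17 segment only. Ts1Cje also carries a single copy of a few genes at the end of MMU12, where the MMU16 segment was joined. Over the 18 brighter MMU17 probe sets, the median FC was 1.382 in Ts65Dn, 0.991 in Ts1Cje and 1.000 in Dp16. Over the 16 brighter probe sets from Mrpl39 to Sod1 it was 1.353 in Ts65Dn, 1.029 in Ts1Cje and 1.314 in Dp16. Over the 46 from Scaf4 to Zbtb21, which all carry, it was 1.357 in Ts65Dn, 1.384 in Ts1Cje and 1.287 in Dp16.

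**Figure D5:**
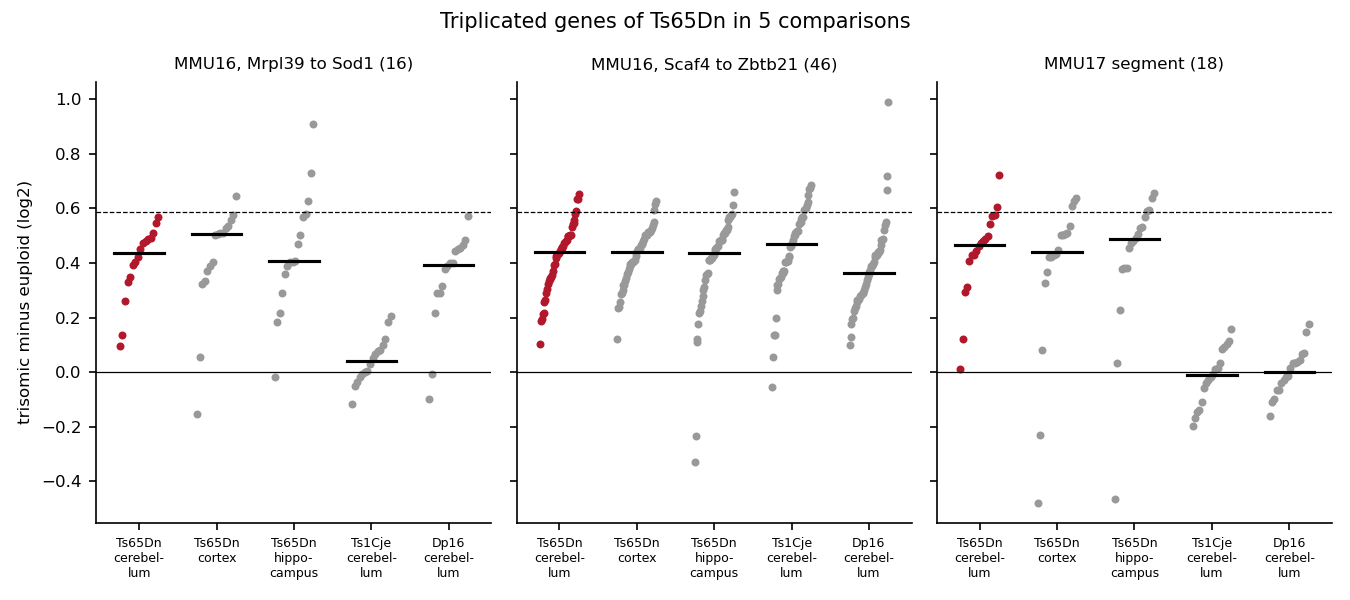
Trisomic minus euploid difference (y axis, log2) of the brighter triplicated genes of Ts65Dn (points, 1 for each gene, with the median as a bar) in Ts65Dn cerebellum, Ts65Dn cortex, Ts65Dn hippocampus, Ts1Cje cerebellum and Dp16 cerebellum, by stretch; the dashed line marks an FC of 1.5. The medians lie at 0.47 for the MMU17 genes in Ts65Dn cerebellum, against -0.01 in Ts1Cje and 0.00 in Dp16, and at 0.44 for Mrpl39 to Sod1 in Ts65Dn cerebellum, against 0.04 in Ts1Cje.

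In the test of the difference between models, 27 probe sets passed an FDR of 10% for Ts65Dn minus Ts1Cje (0.127%) and 9 for Ts65Dn minus Dp16 (0.0424%). Of the 18 brighter MMU17 probe sets, 18 had the larger effect in Ts65Dn against either model, with 9 called against Ts1Cje and 7 called against Dp16. Cep43 had the lowest P against Dp16 (0.61, adjusted P = 0.0145). Tulp4 (0.52), Snx9 (0.48) and Zdhhc14 (0.53) were among the 6 lowest against Ts1Cje, and Tulp4 (0.45), Snx9 (0.43), Rps6ka2 (0.59) and Arid1b (0.52) were among the 6 lowest against Dp16. From Scaf4 to Zbtb21, 15 of 46 effects were larger in Ts65Dn than in Ts1Cje and 0 were called, with 0 also at P below 0.05. With only the arrays of Ts65Dn and Dp16 in the fit, 2 probe sets passed rather than 9. Leaving out 1 animal at a time, 3 passed without the trisomic Dp16 animal TS255, 5 without Eup6, 16 without the euploid Dp16 animal Eup279 and 37 without Eup274.

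Genes outside the triplicated segments also separated the models, and the first of them belong to the altered end of MMU12 in Ts1Cje. Dnah11, an axonemal dynein gene at that translocation breakpoint, had an effect of 0.27 in Ts65Dn and 2.04 in Ts1Cje (difference -1.77, adjusted P = 5.98e-07). Itgb8, an integrin subunit gene among those with a single copy in Ts1Cje, had -0.06 in Ts65Dn and -0.91 in Ts1Cje (difference 0.85), and, elsewhere, Adam1b, a sperm metalloproteinase gene, had 0.24 in Ts65Dn and -0.41 in Ts1Cje (difference 0.66). The interferon-induced gene Ifit1 had -0.12 in Ts65Dn, against 1.30 in Ts1Cje, and the difference passed (adjusted P = 0.0755). Parva had 0.40 in Ts65Dn and -0.11 in Ts1Cje, and Neu2 had 0.41 in Ts65Dn and -0.12 in Ts1Cje, a difference that passed for both. Olfr118, an olfactory receptor gene, had 0.49 in Ts65Dn, against -0.82 in Dp16 (difference 1.31, adjusted P = 0.037).

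DEX genes shared with Ts1Cje cerebellum lay in the MMU16 segment. Of the 63 DEX genes of Ts65Dn and the 91 of Ts1Cje, 25 were common (39.7% of the Ts65Dn list and 27.5% of the Ts1Cje list), and 25 of the 25 were MMU16 genes higher in both. None of the 10 DEX genes of Ts65Dn outside the segments was among the 58 of Ts1Cje. With Dp16 cerebellum, where 4 genes were DEX, 2 were common.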

How the data were processed

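RNA was extracted from the cerebellum with NucleoSpin RNA II columns, labelled with the WT PLUS kit and hybridised to Affymetrix Mouse Gene ST arrays, 1 array for each animal. The authors deposited log2 values made by robust multi-array averaging (RMA) with a custom probe grouping that gives 1 probe set for each Entrez gene, and each table of 10 arrays was normalized on its own. RMA sets all arrays of a table to 1 distribution, so a shift of all genes together cannot be seen. The whole-series table held the same cerebellum values, with differences of up to 5e-09. Columns of other samples in the tables numbered 0. Arrays give no read depth, and the number of arrays limits the precision.

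The values were used as deposited. limma 3.58.1 in R 4.3.3 compared 5 trisomic with 5 euploid animals with no covariate. P values of 12 comparisons, 254700 in all, were adjusted together by Benjamini-Hochberg, and the limits that define DEX and MDG follow the methods of the study, which applied them to a t-test. P values set a mean difference against the spread between animals within a group. Tests across features were first tested on simulated data. Genes were named through RefSeq for 20768 probe sets, and 457 stayed unnamed and without a position, and were counted outside the segments. Ranges of log2 signals are the lowest and highest animal, and a probe set was called brighter where its mean over the 10 arrays exceeded the median of all.

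Contrasts of the trisomic effect between regions were fitted over 30 arrays with the animal as a random block (consensus correlation 0.077, statmod 1.5.0), since the titles give the same animal numbers in each region. Deviations of the same animal number from its group mean correlated between -0.061 and 0.278 with those in cortex and hippocampus. Contrasts between models were fitted over the 3 cerebellum tables. Those tables were normalized separately, so only effects within a table were compared.

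The genes in the text were chosen by rule: the 15 MMU16 and 8 MMU17 DEX genes with the largest change, all DEX genes outside the segments, 28 segment genes and 9 MMU17 genes known from the field, up to 4 members of lowest P in each list described, the 6 lowest P values of each contrast, and the 6 MDGs outside the segments with the largest change in each direction. Others (Ncam2, Ttr, Rfx5, Neu2 and Parva in contrasts, Ifit1 and the microRNA genes beside the segment) were chosen after their values were seen. The members, lists and tests were chosen with earlier results of these data known. Alternatives were the methods' t-test, adjustment within this comparison, trend and robust moderation, array weights, quantile normalization, median centering, leaving out dim probe sets or 1 animal at a time, the regions or models in 1 fit, and other FDR and FC limits. Promoter and microRNA sequences were read from RefSeq tables, and no set test was run. Some items are not reported here.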

Additional observations from a re-analysis of the deposited data

Results flagged for a closer look

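In 14 of 194 groups of 5 animals, 1 animal stood far from the other 4: its gap to the nearest, as a share of the group's whole range, passed the 95% limit of Dixon's test. Chance alone gives about 1 in 20 groups. In trisomic animals, TS5 was the low value for Clic6 (7.66, others 7.84 to 7.87; gap share 0.854) and the high value for Paxbp1 (9.78, others 9.40 to 9.51; 0.716), Serac1 (8.39, others 7.83 to 7.97; 0.746) and Mir99a (6.01, others 5.47 to 5.57; 0.807). TS9 was low for Selenov (gap share 0.87) and high for Gm10651 (0.739). In euploid animals, Eup15 was high for Kcne2 (7.11, others 6.12 to 6.39; 0.731), and Eup6 was low for the choroid plexus gene Folr1 (6.49, others 7.31 to 7.61; 0.73), for Slc38a5 (0.817) and for Kcnmb1 (0.735). Eup16 was high for Adamts1 (0.752) and Olfr403 (0.766), and Eup17 was high for Ifnar2 (0.845) and low for Hspa8 (12.37, others 13.53 to 13.85; 0.79).

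The effect of trisomy in cerebellum differed between models at an FDR of 10%, by limma on the difference itself, for these genes (log2 scale). For Ts65Dn minus Ts1Cje the MMU17 genes were Ezr (0.87), Tmem242 (0.65), Cep43 (0.55), Zdhhc14 (0.53), Tulp4 (0.52), Arid1b (0.49), Snx9 (0.48) and Gtf2h5 (0.46). The MMU16 gene was Atp5j (0.51). Itgb8 (0.85) and Dnah11 (-1.77) belong to the altered end of MMU12 in Ts1Cje, and the other genes outside the segments were Adam1b (0.66), Slc38a5 (0.65), Neu2 (0.52), Parva (0.51) and Ifit1 (-1.42). For Ts65Dn minus Dp16 they were Olfr118 (1.31), Cep43 (0.61), Rps6ka2 (0.59), Arid1b (0.52), Tulp4 (0.45), Snx9 (0.43), Zdhhc14 (0.43) and Gtf2h5 (0.41).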

How the results depend on the processing

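The number of DEX genes at 10% stayed within 1.5 times of 63 under every setting run: 54 with the methods' t-test, 75 with P values adjusted within this comparison, 70 with trend and robust moderation, array weights or quantile normalization, 74 without dim probe sets, 65 with the replicate block over the 3 regions, and 49 to 60 without 1 animal. Of the 63, 45 stayed called whichever animal was left out, and 37 under every setting. The 10 DEX genes outside the segments became 4 at an FDR of 5%, 26 at 20%, 17 with P values adjusted within this comparison, and 4 to 12 without 1 animal, with 5 without Eup6, 6 without Eup8 or Eup15 and 4 without Eup16. MDGs that were higher (1.32% of the probe sets) numbered 164 with a stricter FC limit, 214 with the methods' t-test and 119 without dim probe sets, and MDGs that were lower 35 with the methods' t-test and 25 without dim probe sets, where fewer genes were tested. Without dim probe sets the segment medians were 0.44 (MMU16) and 0.47 (MMU17). Over all 29 MMU17 probe sets, dim ones included, the median was 0.31, and it was 0.28 to 0.42 without 1 animal, the highest without TS18. Members of the gene lists called DEX numbered 5 with P values adjusted within this comparison, 4 with quantile normalization or without dim probe sets, 3 with trend and robust moderation, array weights, median centering or the 3 models in 1 fit, and 0 to 3 without 1 animal, against 1 as reported. The alternatives for the list members, and leaving out 1 animal in the contrasts between regions and models, were added after the data were seen.

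Contrasts called 0 to 4 genes for cerebellum minus cortex and 0 to 1 for cerebellum minus hippocampus without 1 animal, in both cases the most without TS18. No paired test between trisomic and euploid animals was possible, since they share no numbers. For Ts65Dn minus Dp16, 2 genes passed with only those models, and 3 to 37 without 1 animal: 3 without the trisomic Dp16 animal TS255, 5 without Eup6, 16 without the euploid Dp16 animal Eup279 and 37 without Eup274. Small differences turned sign: Mir155 was -0.011 with array weights and -0.0032 with quantile normalization, Mir692-1 was -0.039 with array weights and -0.0019 with median centering, and Mx1 was -0.023 with array weights, -0.041 with quantile normalization and -0.0092 with median centering. Without 1 animal, Mir155 ran between -0.0425 and 0.095, Mir692-1 between -0.11 and 0.11, Mx1 between -0.0552 and 0.0547, Itgb8 between -0.12 and 0.0081, and Myl4 between -0.00 and 0.072. Other than these, no named gene turned sign. The causes were not tested. Of the dimmer MMU16 probe sets 1 of 61 was DEX, and of the brighter ones 39 of 62; whether dim genes did not change or were not measured well enough was not tested.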

Other observations

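Some probe sets took separate levels in different animals, whatever the genotype. H2az1, a histone variant, had log2 signals of 7.03, 3.11, 7.06, 6.31 and 6.68 in trisomic cerebella (TS4, TS5, TS9, TS18 and TS21) and 8.10, 7.80, 3.31, 6.92 and 7.20 in euploid cerebella (Eup6, Eup8, Eup15, Eup16 and Eup17). TS5 and Eup15 were the low animals in cerebellum, and in cortex they were again the lowest at 4.75 and 3.64. Hspa8, a constitutive heat shock protein, had 13.30, 12.32, 13.76, 12.19 and 13.39 in trisomic cerebella and 13.85, 13.72, 13.80, 13.53 and 12.37 in euploid cerebella. TS5, TS18 and Eup17 were low in cerebellum, and in cortex at 12.19, 12.16 and 11.97. Neither gene was DEX (adjusted P = 0.931 for H2az1 and 0.868 for Hspa8).

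These levels did not follow the animal numbers everywhere. In hippocampus, Hspa8 was 12.00 in TS5, 12.16 in TS9 and 12.97 in TS18, so that TS9 rather than TS18 was low. Gm6969 showed the same: 6.60 in TS5, 8.11 in TS9 and 6.70 in TS18 in cerebellum, and 7.34 in TS5, 6.06 in TS9 and 9.04 in TS18 in hippocampus. Over the 12 probe sets that left a gap of at least 0.5 between arrays in both regions, 7 of 10 cerebellum arrays were most like the hippocampus array of their own number within their group, and 8 of 10 were so over 17 probe sets in cortex. The 5 euploid numbers and TS4 and TS5 matched in both comparisons. TS9 was most like TS21 in both, TS18 was most like TS9 in hippocampus, and TS21 was most like TS18 in both. Between cortex and hippocampus, 7 of 10 arrays matched their own number over 22 probe sets. There TS21 matched, whereas TS4 was most like TS5, TS9 was most like TS18 and TS18 was most like TS9. This check was chosen after the data were seen. Matches were sought only among arrays of the same group, so the check bears on the pairing of regions and could not test a group label. The contrasts between regions called 0 genes without the block as well.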
